A study of Homo sapiens with 96 samples.

Results

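The genes described are the human replication-dependent histone genes, the clustered genes for the linker histone H1 and for the core histones H2A, H2B, H3 and H4. They were taken by name as all gene symbols that begin with HIST1H, HIST2H, HIST3H or HIST4H, and 88 of the 58521 symbols in the deposited tables did so. By the GENCODE 29 annotation 70 of them were protein-coding and 18 were pseudogenes. By histone class there were 8 H1, 21 H2A, 26 H2B, 17 H3 and 16 H4 genes, and 67 of the 88 lay in the large HIST1 cluster on chromosome 6.

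The study was a technical evaluation in which methylome and transcriptome were read from the same single cell, and its RNA arm comprised 96 wells, 1 cell each, of a plate with 8 rows and 12 columns. The cells were HUES64, a human embryonic stem cell line in long use, sampled at day 0; by genotype they carried an inducible DNMT1 knockout, DNMT1 being the enzyme that keeps up DNA methylation. The labels disagree on doxycycline (the description field reads dox+, the induction field No), all wells carry the same entries, and no separate cultures are named, so the wells form 1 group and no comparison between conditions was made. Polyadenylated RNA was pulled down from each lysate and amplified by SMART-seq2, a full-length protocol that starts from the poly(A) tail.

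Replication-dependent histone genes are transcribed mainly in S phase, when new DNA is packed into nucleosomes. Their messages are the main class of animal messenger RNA that normally lacks a poly(A) tail: the RNA ends just after a conserved stem-loop, to which the stem-loop binding protein SLBP attaches, and the message decays when replication ends. Some of these genes also give longer, polyadenylated transcripts that run past the stem-loop, and replacement histones such as H3F3B and H2AFZ are made from ordinary polyadenylated messages throughout the cycle.

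The stem-loops of members that the results below turn on are shown first, since the poly(A) step selects against RNA that ends there. Each line gives 30 bases of the transcript in the GENCODE 29 sequence, 5′ to 3′, with the 16 bases of the stem-loop in capitals.
HIST1H2BH: cccaaaGGCTCTTTTCAGAGCCacttaatg
HIST1H2BN: cccaaaGGCTCTTTTCAGAGCCactcagtc
HIST2H2BE: tccaaaGGCTCTTTTCAGAGCCacccacct
HIST1H2AC: cccaaaGGCTCTTTTCAGAGCCcccctacc
HIST1H3H: cccaaaGGCTCTTTTCAGAGCCacccacat
HIST1H2BD: cccaaaGGCTCTTTTAAGAGCCacgcatgt
HIST1H4I: taaaaaGGCCCTTTTTAGGGCCcctaagct
HIST4H4: ccaaaaGGCCCTTTTCAGGGCCcccaaact
A stem-loop was found in the transcript models of 34 members, in 6 forms. The form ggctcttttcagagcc was shared by 17 H2A, H2B and H3 genes, whereas the H4 genes carried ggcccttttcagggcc (5 genes) or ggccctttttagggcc (3 genes). In 28 members a model ran at least 50 bases past the stem-loop. In 18 of these AATAAA, the letters of the polyadenylation signal, stood somewhere in that stretch. Its distance from the transcript end was not examined, so it need not act as a signal. In 6 members the model ended less than 50 bases past the stem-loop, from 6 bases in HIST1H4J to 40 in HIST1H2BL. The models of the other 54, HIST1H1C and HIST1H2BK among them, held none, and these models are short, with a median of 393 bases.

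Of the 96 libraries, 90 had at least 100000 gene reads and at least 2000 genes with a read, and 84 of these also had a mitochondrial share of at least 1% (the lowest kept was 1.51%, the highest left out 0.677%). The 84 libraries held 118549 to 1877837 gene reads, and 62 of them came from plate rows A to E and H and 22 from rows F and G. Libraries of rows F and G were shallower, with a median of 498244 gene reads against 889048, yet had more genes with a read, 16155 against 13346 at the median, and for the leading members, the class sums and the cell cycle relations values are given for both parts of the plate. A further 9 libraries, with at least 10000 gene reads but a mitochondrial share under 1%, were pooled for comparison; that pool held 1009549 gene reads. As a check of the cell type, all 8 pluripotency markers examined, POU5F1, NANOG, SOX2 and LIN28A among them, had a mean above 10 CPM (CPM being the share of a gene in the gene reads of its library, brought to one fixed total).

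Members of the family took few reads. Over the 84 libraries 14115 reads fell on members, 0.0207% of gene reads, and the summed level of all members in a library was 18.9 CPM at the lowest, 143 CPM at the median and 1178 CPM at the highest (mean 190 ± 194, SD, n = 84). A library held 6 to 31 members with a read, with a median of 15.5. Single levels are therefore near the limit of counting: 3 reads amounted to between 1.598 and 25.3 CPM, depending on the library.

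A mean of at least 10 CPM was reached by 4 of the 88 members, or 4.55%, against 15.4% of all genes in the tables. Among protein-coding genes the share was 5.71% of members and 43.3% of all. A read in at least 50% of libraries was found for 6 members, or 6.82%, against 21.2% of all genes and 55.7% of protein-coding ones. All but 2 members had a read somewhere, whereas 19.8% of all genes and 2.19% of protein-coding genes had none. Most members were at traces, 61 with a mean under 1 CPM. Without the library of well B12, the highest for 3 of the 4, HIST1H4I had a mean of 9.22 CPM and the count was 3.

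**Figure D1:**
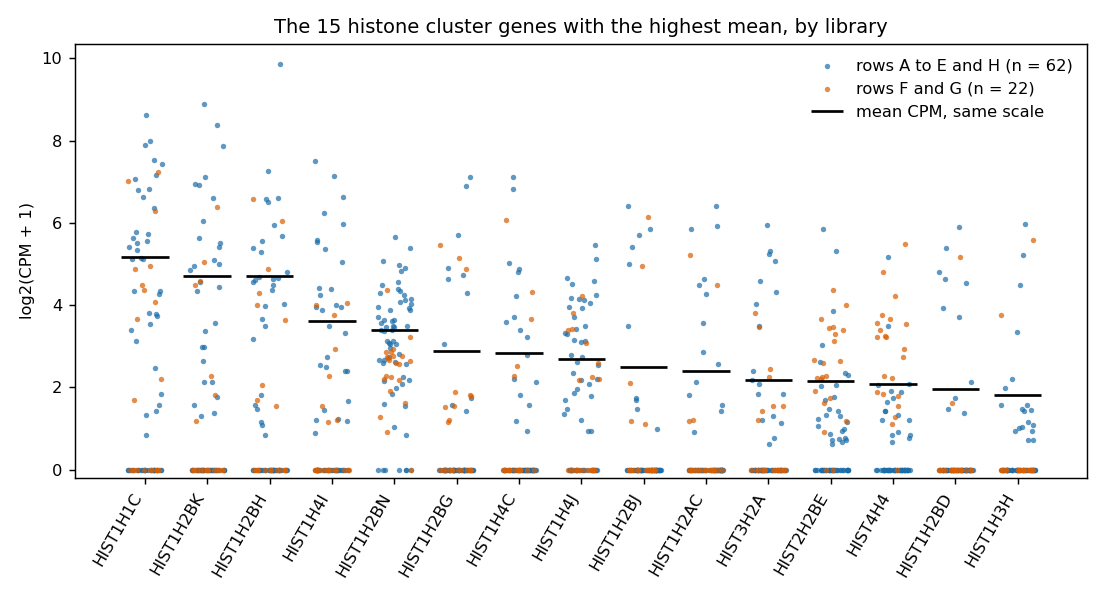
Level of the 15 histone cluster genes with the highest mean, 1 point per library on a log2(CPM + 1) scale, coloured by part of the plate, with the mean CPM as a black line. HIST1H1C, HIST1H2BK, HIST1H2BH and HIST1H4I are at 0 in many libraries and reach 180 to 927 CPM in others, whereas HIST1H2BN has a read in 76 of 84 libraries and stays under 50 CPM.

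Reads were unevenly spread over the classes. H2B genes held 45.2% of the summed mean level, H1 genes 21.04%, H4 genes 18.3%, H2A genes 8.72% and H3 genes 6.68%, although the core histones enter the nucleosome in equal numbers. These shares are of the column that ignores strand, which leaves out reads that overlap genes on opposite strands. Left out so were 1303 reads of HIST1H4I, 1304 of HIST1H2BK and up to 171 each for H2A genes. Counted were 2675 H4, 6306 H2B and 1188 H2A reads. How far this shifts the shares was not tested. The HIST1 cluster held 91.3%, and the 5 highest members together 55.9%. In rows F and G alone the 5 highest held 37.5%. The summed H2B level had a mean of 97.5 ± 153 CPM in rows A to E plus H, against 53.6 ± 43.9 CPM for rows F and G, and the summed H3 level, in the other direction, 9.78 ± 14.9 and 20.9 ± 26.9 CPM. For H1 these means were 43.5 and 30.3 CPM, for H2A 16.9 and 15.8, and for H4 37.1 and 28.6.

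**Figure D2:**
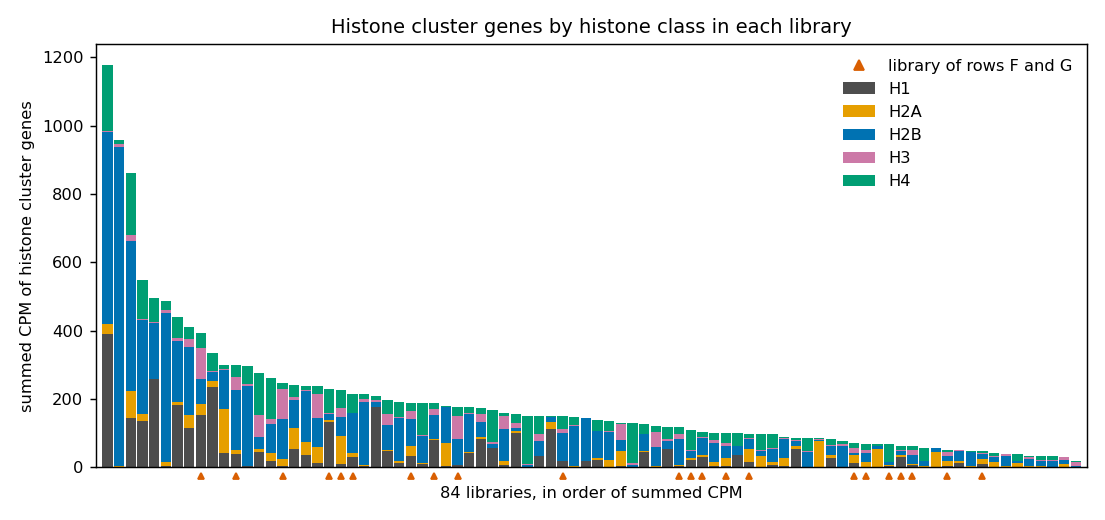
Summed CPM of the histone cluster genes in each of the 84 libraries, stacked by histone class and ordered by the sum, with libraries of rows F and G marked by triangles. The 3 highest libraries, at 1178, 956 and 862 CPM, stand apart. H2B is the largest class in each, with 561, 932 and 438 CPM. The next class is H1 in the first, with 390 CPM, and H4 in the third, with 183 CPM.

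The H1 class rested on HIST1H1C, which encodes H1.2, a linker histone that binds DNA where it enters and leaves the nucleosome (chromosome 6, 26055787 to 26056428, minus strand, GRCh38). Its level was 0 at the lowest, 2.40 CPM at the median and 390 CPM at the highest, with a mean of 35.3 ± 67.5 CPM (SD, n = 84), of 39.9 ± 74.2 in rows A to E plus H, and of 22.2 ± 42.1 for rows F and G. This was the highest mean of all members in the column that ignores strand and without scaling factors, but the order of the leading members depends on both. With TMMwsp factors HIST1H2BH was higher, with 63.8 CPM against 36.8 for HIST1H1C. In the strand-specific columns HIST1H2BK was higher, with 34.1 against 29.1 CPM in the forward and 36.8 against 34.9 CPM in the reverse column. It had a read in 47 libraries, 55.95% (95% Clopper-Pearson interval 44.7 to 66.8, counting error only), and reached 100 CPM in 11. Where it was read at all its median was 33.7 CPM, so that libraries with none and libraries with well over the 3-read level both made up the mean. The other coding H1 genes were far lower: HIST1H1B had a mean of 0.607 CPM, HIST1H1D 0.536 CPM, HIST1H1E 0.466 CPM, HIST1H1A 0.078 CPM and HIST1H1T, the testis form, 0.118 CPM. These models are of similar length, 642 to 754 bases, and per kb HIST1H1C had 54.96 CPM against 0.891 CPM for HIST1H1B.

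No H2A gene reached 10 CPM. The highest was HIST1H2AC (chromosome 6, 26124145 to 26139116, plus strand), with a mean of 4.26 ± 13.8 CPM, a read in 18 of 84 libraries and a highest value of 84.5 CPM. HIST3H2A, from the small cluster on chromosome 1, had a mean of 3.53 ± 9.97 CPM and a read in 26 libraries. In the strand-specific columns HIST3H2A was the higher of these 2 genes, with 5.11 against 5.10 CPM in the forward and 6.10 against 4.81 CPM in the reverse column. HIST1H2AK was at 0 in every library in the column that ignores strand. The 2 strand-specific columns together gave it 46 reads. In GENCODE 29 its exons overlap those of HIST1H2BN on the other strand, but for HIST1H2BN these columns summed to 600 reads against 584 without strand, too few more to match the 46, and which genes share the reads of HIST1H2AK was not settled.

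H2B genes had the widest spread between libraries, with a summed level of 2.90 CPM at the lowest, 43.4 at the median and 932 at the highest. HIST1H2BK (chromosome 6, 27146418 to 27146798, minus strand) had 0 at the lowest and at the median and 478 CPM at the highest, with a mean of 25.3 ± 71.2 CPM and a read in 36 libraries. Its mean was 31.6 ± 81.4 CPM in rows A to E plus H, against 7.57 ± 18.9 CPM in rows F and G. HIST1H2BH (chromosome 6, 26251651 to 26253710, plus strand) likewise had a median of 0 and reached 927 CPM, with a mean of 24.9 ± 103 CPM and a read in 38 libraries. In rows A to E plus H its mean was 29.9 ± 119 CPM, and for rows F and G 11.0056 ± 24.2 CPM. With TMMwsp scaling factors the mean over the 84 was 63.8 CPM, more than 1.5 times the unscaled value, and with scran factors 33.8 CPM. A single library, well C12, gave 44.2% of the summed level of HIST1H2BH, and without it the mean was 14.1 CPM. HIST1H2BH made up 96.9% of all member CPM in that library. HIST1H2BE was still more concentrated, with 94.9% of its level in well D2, where it reached 172 CPM. Among members with a mean of at least 1 CPM, 3 of 27 had 50% or more of their level in 1 library, against 8.69% of all such genes.

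HIST1H2BN was the most widely read member, with a read in 76 of 84 libraries (90.5%, interval 82.1 to 95.8), but at a low and even level: 0 at the lowest, 6.28 CPM at the median and 49.6 CPM at the highest (mean 9.48 ± 9.32 CPM). In rows A to E plus H the mean was 11.03 ± 10.2 CPM, and for rows F and G 5.11 ± 3.81 CPM. With no filter on the mitochondrial share it was 16.1 CPM. Its GENCODE 29 model is 5477 bases long and runs past the stem-loop, and per kb it had 1.73 CPM, less than HIST1H2BH with 12.104. HIST1H2BG had a mean of 6.39 ± 21.5 CPM and a read in 21 libraries. Its annotated transcript holds a run of 30 adenines, at which a poly(T) primer could pair within the transcript; whether this adds to its reads was not tested. HIST1H2BJ had a mean of 4.63 ± 15.5 CPM, HIST2H2BE 3.44 ± 8.06 CPM and HIST1H2BD 2.91 ± 9.66 CPM.

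H3 genes were low throughout. HIST1H3H, the highest (chromosome 6, 27810064 to 27811300, plus strand), had a mean of 2.52 ± 9.58 CPM, a highest value of 62.2 CPM and a read in 21 libraries. The next, HIST1H3G, had a mean of 1.97 ± 5.85 CPM. HIST2H3PS2 had no read in any of the 84 libraries, which allows a level of up to 0.0441 CPM (3 counts of all gene reads). Every stretch of 50 bases in the transcripts of HIST2H3A and HIST2H3C (100%) also occurs in another member, so their means of 0.292 and 0.245 CPM are uncertain.

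Among the H4 genes, which all encode the same or nearly the same protein, HIST1H4I was highest (chromosome 6, 27138588 to 27139881, plus strand): 0 at the lowest and at the median and 180 CPM at the highest, with a mean of 11.2 ± 29.1 CPM and a read in 37 libraries. In the strand-specific columns its mean was 24.2 and 21.3 CPM. HIST1H4C had a mean of 6.19 ± 20.96 CPM with a read in 22 libraries. HIST1H4J had 5.45 ± 8.21 CPM with a read in 46, but 81.2% of its stretches of 50 bases, and 100% of those of HIST1H4K, occur in another member, so the split of reads between such genes is uncertain. Per kb the order among these differed in the column that ignores strand, with 14.6 CPM for HIST1H4J, 14.2 for HIST1H4C and 8.69 for HIST1H4I. The last value leaves out 1303 reads of HIST1H4I that overlap a gene on the other strand, so this order is uncertain. HIST4H4, the lone member on chromosome 12, had a mean of 1.17 ± 4.595 CPM in rows A to E plus H, against 9.14 ± 9.97 CPM in rows F and G, with a read in 18 of 62 and 21 of 22 libraries. HIST2H2BE had a read in 27 of 62 and 20 of 22 libraries of these parts. HIST1H4I had the higher mean in the first, 14.3 ± 33.2 against 2.65 ± 5.07 CPM.

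Leading members fell on either side of their level in the 9 pooled libraries. The family as a whole had 300 reads in the pool, or 297 CPM, against 207 CPM over the reads of the 84 libraries. The 4 members with a mean of at least 10 CPM had 2, 2, 0 and 1 reads there, for HIST1H1C, HIST1H2BK, HIST1H2BH and HIST1H4I, or 1.98, 1.98, 0 and 0.991 CPM, and all 4 thus lay above the pool, as did 77.4% of all genes with such a mean. HIST1H2BN had 96 reads in the pool, found in 9 of 9 libraries, or 95.1 CPM (95% Poisson interval 77.02 to 116, counting error only) against 9.48 CPM in the 84. HIST1H1PS2, a pseudogene, had 18.8 CPM in the pool against 2.33, HIST2H2BE 13.9 against 3.44, and HIST1H2APS1, also a pseudogene, 10.9 against 1.78. Of the 6 members read in at least 50% of libraries only HIST1H1C and HIST1H4J had a mean above the pool, 2 of 6 against 54.5% of all such genes. Of the 86 members with any read, 35 had a mean above the pool, 40.7% against 57.1% of all genes. Since 1 read in the pool amounts to 0.991 CPM, a member with a lower mean lies above the pool only if it has 0 reads there. For the 61 members with a mean under 1 CPM the count thus says little about levels. In all, 6 lay above the upper 95% limit of the pool, 6.98% against 14.6% of all genes: HIST1H1C, HIST1H2BK, HIST1H2BH, HIST1H4I, HIST1H2BG and HIST1H2AC. That limit is 3.65 CPM for a gene with 0 reads in the pool, so no member with a lower mean could pass it. These 2 shares therefore do not compare like with like. Below the lower limit lay 20, or 23.3% against 23.7% of all genes.

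**Figure D3:**
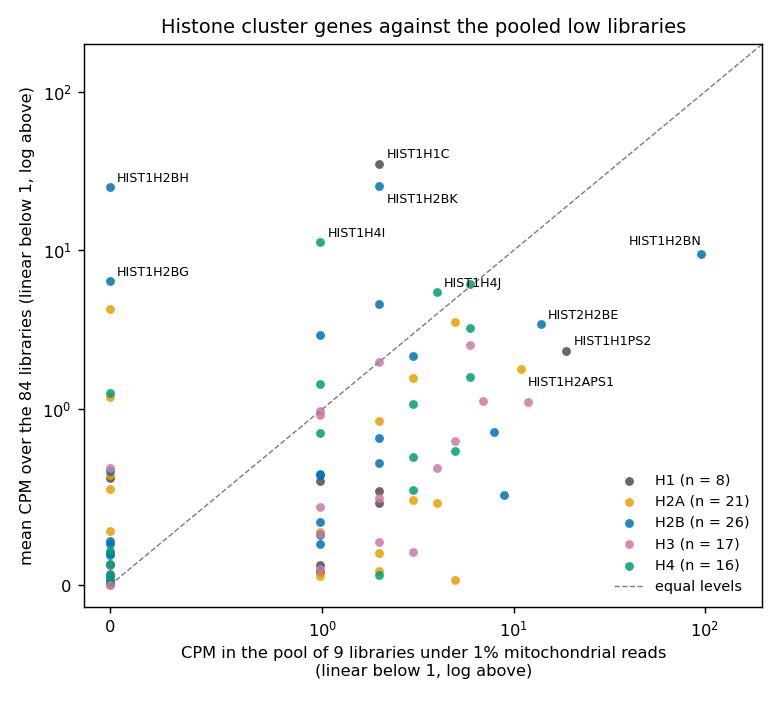
Mean CPM over the 84 libraries against CPM in the 9 pooled libraries whose mitochondrial share was under 1%, 1 point per histone cluster gene, coloured by class, both axes linear below 1 and logarithmic above. HIST1H1C, HIST1H2BK, HIST1H2BH and HIST1H4I lie far above the line of equal levels, and HIST1H2BN, HIST1H1PS2, HIST2H2BE and HIST1H2APS1 far below it.

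Members were also grouped by how their transcript models end. The 28 that run past the stem-loop had a median of 0.826 CPM per kb, the 6 that end at it 1.40, and the 54 whose models hold none 0.762. How the RNA of these 54 ends cannot be read from their models. Against the 60 others as 1 group, with 0.788, the members that run past had a ratio of 1.05. Without division by length the ratio was 2.71, since the models that run past the stem-loop are longer, with a median of 1903 bases against 395. Members with AATAAA past the stem-loop had a median of 0.487 CPM per kb and those that ran past without it 1.74. The lengths are those of GENCODE 29, and the reads at the transcript ends themselves cannot be seen in tables of counts.

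**Figure D4:**
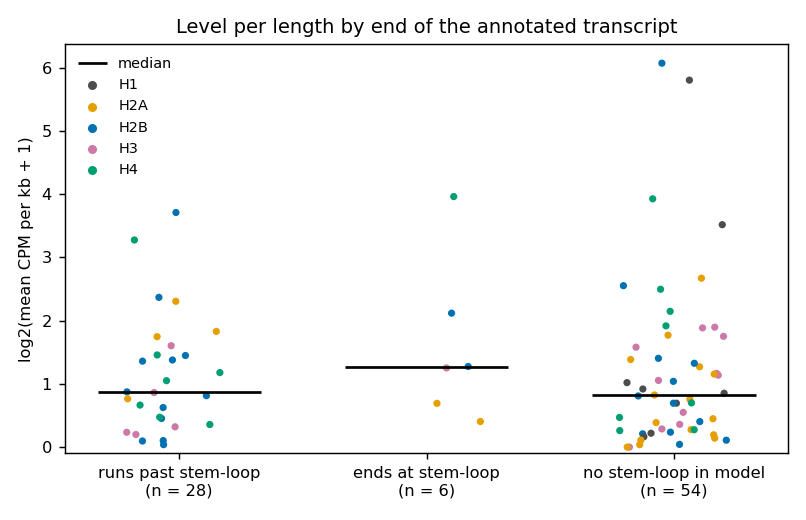
Mean level per length of each histone cluster gene, as log2(CPM per kb + 1), grouped by how its GENCODE 29 transcripts end, coloured by class, with the group median as a line. The medians are 1.40 CPM per kb for models that end at the stem-loop, 0.826 for those that run past it and 0.762 for those with none. HIST1H1C and HIST1H2BK are in the last group, and HIST1H4I is in the group that runs past. HIST1H2BK and HIST1H4I are drawn at their GENCODE 29 lengths, which may not be the lengths behind their counts.

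Replacement histones took far more reads than the family. The 12 replacement histone genes examined summed to 4211 CPM at the median, with 25.5 at the lowest and 11845 at the highest, against 143 CPM for the 88 members. Most of the replacement histone reads came from H2AFZ and H3F3B. The median of the 12 gene means was 42.9 CPM, with 2.96 CPM for H1FX at the lowest. H2AFZ, the H2A variant of promoters, had a mean of 2238 ± 1438 CPM, and H3F3B, one of the genes for H3.3, 1784 ± 1183 CPM. Per kb these were 972 and 291 CPM, against 54.96 for HIST1H1C, which lay at percentile 96.5 of protein-coding genes on that scale. By mean CPM, not divided by length, HIST1H1C lay at percentile 76.5. Its model is short, with 639 coding bases among 642, so the place per kb rests on that length. The median of coding members was 0.862 CPM per kb, against 1.33 for other protein-coding genes.

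The strand-specific columns showed that HIST1H4I and HIST1H2BK share reads in the authors' counting. Reads that overlap genes on opposite strands are left out of the column that ignores strand, but are counted for a gene in 1 of the other columns. For HIST1H4I those 2 columns summed to 2382 reads against 1079 without strand, an excess of 1303, and for HIST1H2BK to 3738 against 2434, an excess of 1304. The excess was the same in 81 of 84 libraries, a count that includes libraries where it was 0 for both genes. In GENCODE 29 the genes lie 6536 bases apart without overlap, so the models behind these counts cannot be those of GENCODE 29 here. The levels of HIST1H2BK and HIST1H4I per length are therefore not known. The shared reads were present in 27 libraries and had a mean of 13.9 ± 41.7 CPM and a median of 0 over all 84. They are missing from the CPM of both genes given above. Another 9 members, all H2A genes, had an excess of at least 20 reads: HIST3H2A with 171, HIST1H2AE with 133, HIST1H2AI with 117 and HIST1H2AC with 103 were the highest.

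The S-phase score is the mean of z-scored log2(CPM + 1) over 30 replication genes such as MCM3, PCNA and RRM1, and the mitotic score the same over 29 genes such as TOP2A, NUSAP1 and MKI67. All relations below are descriptions across 84 libraries that also share differences in depth and plate part, and no p is given. The summed level of the members, on the log2 scale, had a Spearman rho of 0.18 (Pearson r 0.20) with the S-phase score and of 0.11 (r 0.11) with the mitotic score. Within rows A to E and H the rho with the S-phase score was 0.31, and within rows F and G -0.34, so the pooled value stands for neither part. With the mitotic score these were 0.24 and -0.27. With depth and genes detected taken out, the rho with the S-phase score over all 84 was 0.034. With SLBP, which had a mean of 61.8 ± 95.2 CPM, the summed level had a rho of 0.020.

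Single members differed widely. HIST1H4I had a rho of 0.57 with the S-phase score (r 0.53, and r 0.54 without the 2 libraries farthest from the median score), above the 95th percentile of all genes read in 20% of libraries or more, which was 0.47. HIST1H4I is the highest of the 30 members so read, so its place above that mark says nothing about the family. The rho was 0.62 within rows A to E and H, and 0.29 for rows F and G, and 0.39 with depth and genes detected taken out, where the 95th percentile was 0.32. HIST1H1C had a rho of 0.46 (r 0.45, and 0.43 without 2 libraries), with 0.60 within rows A to E and H, and -0.080 for rows F and G, and 0.28 with depth and genes detected taken out. It is among the genes read in 50% of libraries or more, whose 95th percentile was 0.50, and 0.35 with depth and genes detected taken out, so both of its values lay below that mark. Its rho with gene reads alone was 0.39, and that of HIST1H4I 0.41. HIST1H2BK had 0.38 with the S-phase score (0.44 and 0.044 in the 2 parts of the plate) and 0.33 with the mitotic score (0.42 and 0.11), and 0.19 and 0.16 with depth and genes detected taken out. HIST1H2BH, the other H2B gene with a mean above 10 CPM, had -0.0086 with the S-phase score (-0.048 and 0.053) and 0.23 with the mitotic score (0.29 and 0.018), and with depth and genes detected taken out -0.20 and 0.16.

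**Figure D5:**
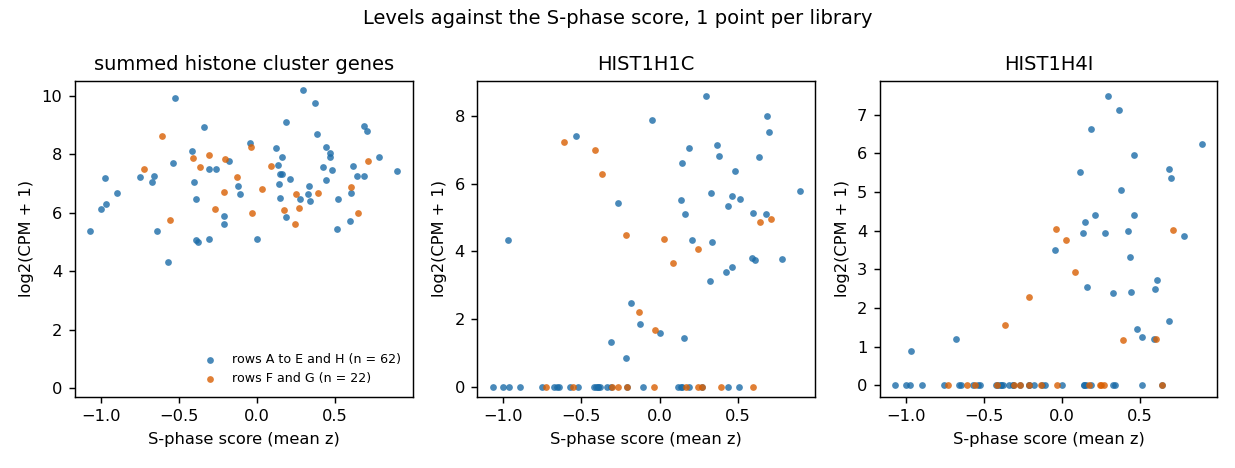
Level of the summed histone cluster genes, of HIST1H1C and of HIST1H4I, as log2(CPM + 1), against the S-phase score, 1 point per library, coloured by part of the plate. The rho is 0.18 for the sum, 0.46 for HIST1H1C and 0.57 for HIST1H4I, and many libraries are at 0 for the single genes.

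A rho of at least 0.2 with the S-phase score was found for 3 of the 6 members read in at least 50% of libraries (HIST1H1C, HIST1H2BN and HIST1H4J), against 43.9% of all such genes, and for 7 of the 30 read in at least 20%, or 23.3%, against 32.9%. With the mitotic score the counts were 1 of 6 against 41.2% and 6 of 30 against 30.9%. The remaining 3 of the 6, HIST1H1PS2, HIST2H2BE and HIST1H2APS1, had a rho with the S-phase score of 0.13, -0.080 and -0.12. The median over the 6 was 0.17 with the S-phase score, where all genes had 0.15, and 0.13 with the mitotic score, where all genes had 0.15. The S-phase list itself had a median rho of 0.46 with the score that it makes up.

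Pairs of members had low correlations in general. The 15 pairs among the 6 widely read members had a median rho of 0.011, and pairs of all genes passing the same filter 0.059. The sign of the former depends on scaling, with -0.057 under TMMwsp and -0.019 under scran factors. Among the 30 members read in at least 20% of libraries the median over 435 pairs was 0.035, where all genes had 0.045. The highest pair was HIST1H4I with HIST1H2BK, with a rho of 0.68, of 0.68 within rows A to E and H, and of 0.66 for rows F and G. A read of both was found in 27 libraries, of the first alone in 10, of the second alone in 9 and of neither in 38. Their levels exclude the reads shared between them, but 2 genes and 1 RNA that crosses both models cannot be told apart here. The shared reads had a rho of 0.53 with the S-phase score. HIST1H1C had a rho of 0.41 with HIST1H4I (0.51 and 0.058 in the 2 parts of the plate) and of 0.35 with HIST1H2BK (0.44 and 0.0022), but of 0.040 with HIST1H2BH. HIST1H4J and HIST1H4K, with 0.40, are near copies.

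The promoters of HIST1H1C, HIST1H2BK and HIST1H4I are shown because, of the 15 members with the highest mean, these 3 had the highest rho with the S-phase score, and they belong to 3 histone classes. Each line gives the RefSeq sequence in GRCh38.p14 from 250 bases before to 50 after the gene's start, 5′ to 3′ on the strand of the gene, for chr6:26056421-26056720 (minus), chr6:27146809-27147108 (minus) and chr6:27139032-27139331 (plus). Capitals mark ATTTGCAT, the octamer bound by POU factors, and CCAAT, each in either direction. The HIST1H4I window lies within the GENCODE 29 span of that gene, not before it.
HIST1H1C: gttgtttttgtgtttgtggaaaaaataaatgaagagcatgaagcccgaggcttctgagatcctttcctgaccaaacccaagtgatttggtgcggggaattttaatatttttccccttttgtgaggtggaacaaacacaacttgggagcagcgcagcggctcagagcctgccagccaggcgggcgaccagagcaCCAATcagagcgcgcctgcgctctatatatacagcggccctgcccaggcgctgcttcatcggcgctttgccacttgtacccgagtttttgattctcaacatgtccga
HIST1H2BK: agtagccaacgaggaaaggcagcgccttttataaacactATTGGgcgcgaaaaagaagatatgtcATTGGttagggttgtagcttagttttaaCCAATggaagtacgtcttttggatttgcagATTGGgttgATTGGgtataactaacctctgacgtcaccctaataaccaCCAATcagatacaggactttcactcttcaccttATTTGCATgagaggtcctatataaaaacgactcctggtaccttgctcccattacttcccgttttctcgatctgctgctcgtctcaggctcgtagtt
HIST1H4I: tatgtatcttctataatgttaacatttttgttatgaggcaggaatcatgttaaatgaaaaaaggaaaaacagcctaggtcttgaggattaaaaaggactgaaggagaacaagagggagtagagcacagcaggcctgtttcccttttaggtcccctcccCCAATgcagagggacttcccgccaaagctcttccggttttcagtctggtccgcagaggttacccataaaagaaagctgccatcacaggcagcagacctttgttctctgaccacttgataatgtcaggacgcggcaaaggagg
Among the 60 members with a promoter in the RefSeq table, the octamer stood in 9 of 13 H2B and 11 of 15 H2A windows, in 1 of 13 H3 windows and in none of the 6 H1 and 13 H4 windows, against 1.80% of all 27305 promoters. CCAAT stood in every H1, H2A, H2B and H3 window and in 3 of 13 H4 windows, against 35.7% of all. H2A and H2B genes often lie head to head, so that their windows overlap and are not independent. The H3 window with the octamer, listed for HIST1H3D (chr6:26199244-26199543), is the same window as that of HIST1H2AD, and the GENCODE 29 model of HIST1H3D lies apart from it, at 26196840 to 26197250. Levels with and without the octamer overlapped: H2B genes with the octamer ranged from 0.0155 to 25.3 CPM with a median of 0.627, and the 4 without it from 0.693 to 9.48 CPM with a median of 1.89. For H2A the order of the medians was the other way, 0.482 CPM for the 11 with the octamer and 0.246 for the 4 without it.

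Genes outside the family whose level was most like the summed level of the members were SERAC1, HCFC1, RNLS, OPA3, MED19, VRTN, PPIL1, WASF1, EIF6 and CXorf23, with a rho of 0.40 for SERAC1 down to 0.38 for CXorf23, among 12381 genes read in 50% of libraries or more, whose 95th percentile was 0.23. None is on the S-phase, mitotic, chaperone or processing lists. Only 30, 29, 14 and 17 genes of these lists were read in 50% of libraries or more. With so few among 12381, their absence from 10 genes says little. The lowest were MORF4L1P1 with -0.37, then RP11-587D21.1, CNOT7, ENTHD2 and MT1X, with -0.31.

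Genes that serve histone messages and proteins had higher levels per length than the members, with a median of 7.44 CPM per kb for the processing list and 23.96 for the chaperone list, against 0.862 for coding members. Of 18 histone mRNA processing genes, 15 had a mean of at least 10 CPM, and so had all 15 histone chaperone genes, against 43.3% of protein-coding genes. Processing genes included CPSF3 with 130 ± 179 CPM and CPSF2 with 127 ± 175 CPM, subunits of the cleavage machinery. NPAT, an activator of histone transcription, had 33.9 ± 80.1 CPM. Chaperone genes included NAP1L1 with 1382 ± 812 CPM, NASP with 474 ± 502 CPM and SUPT16H with 340 ± 244 CPM. Of these lists 2 of 18 processing genes and 0 of 15 chaperone genes had a rho of at least 0.2 with the summed level of the members. The share of all genes at that mark was not taken, so these counts cannot be called low or high. The median rho was 0.10 for processing and 0.066 for chaperone genes, where all genes had 0.061.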

How the data were processed

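Per the labels, poly(A) RNA of 96 single cells was amplified by SMART-seq2 and made into Nextera XT libraries. Per the submitters' processing notes, FastQC and STAR 2.7.3a were run, and GRCh38.p2 and hg38 are named as builds; which gene annotation served is not given in the sources used here. The deposited tables hold raw counts of reads per gene, once ignoring strand and once per strand. Their summary lines, with 88.8% of all reads, were left out. The count without strand was used, as CPM with no further scaling. No molecular identifiers were present.

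Members, gene lists, filters and the rule for named genes were chosen with earlier results of these data known. Named are the 15 members with the highest mean, the highest of each class, members read in at least 50% of libraries, the 10 genes most and 5 least like the summed level, and up to 6 genes per list; other names, such as HIST1H2BE, HIST1H2AK and the lower H1 genes, were chosen after their values were seen. Of 8 fibroblast markers, COL1A2 and THY1 had a mean of at least 10 CPM. Residual values take ranks linearly free of log2 gene reads and of genes detected after thinning to 100000 reads. For 16 wells in columns 1 and 12 the table's name gave the other column, and the titles were followed. Lengths, coordinates and stem-loops come from GENCODE 29 (GRCh38), promoters from RefSeq. Scripts were tested on simulated data. Alternatives covered scaling (edgeR 4.0.16 TMMwsp factors, scran 1.30.0), strand column, depth, library filters, plate parts, pseudocount, thresholds and libraries B12 and C12, the last and those on members chosen after seeing the data. Python 3.11.15, numpy 2.4.6 and scipy 1.17.1 were used.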

Additional observations from a re-analysis of the deposited data

How the results depend on the processing

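The results were recomputed under each alternative. None carries a test, so none could lose a call, and the rho values that changed sign are given here. The median rho between pairs was -0.057 with TMMwsp and -0.019 with scran factors. In rows F and G alone, 2 members reached a mean of 10 CPM, the 5 highest members held 37.5% of the summed level, the rho of the summed level was -0.32 with the S-phase score and -0.27 with the mitotic score, the median rho of members was -0.10 and 0.033, and that between pairs 0.16. Without those rows the rho of the summed level was 0.31 and 0.25. With no filter on the mitochondrial share it was 0.071 and -0.014, and the median of members 0.048 and 0.0084. With depth and genes detected taken out it was 0.034 and -0.052, and the median of members with the mitotic score -0.023. Without HIST1H1C the rho of the sum with the mitotic score was 0.22. Over members read in 20% of libraries or more, the median rho with the S-phase score was 0.033. Over the 2 members read in 50% of libraries in the reverse-strand column it was 0.34. Members read in at least 50% of libraries numbered 3 in the forward-strand column, 2 in the reverse-strand column, 1 after thinning to 100000 reads and 1 at 3 or more reads. A mean of at least 5 CPM was met by 8. No count of members in this section has the share of all genes under the same setting beside it. Whether members changed more than other genes is therefore not known. Undivided by length, the ratio by transcript end was 2.71. Causes were not tested. The median rho between pairs gave no value after thinning, which left 1 member. No paired analysis was possible because all wells belong to 1 group. Without the library of well B12, which held the highest level of HIST1H1C, HIST1H2BK, HIST1H4I and HIST1H2BD, the count of members with a mean of at least 10 CPM was 3. Levels of most single members were low, with 61 of 88 at a mean under 1 CPM.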

Other observations

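The libraries with the highest summed level of histone cluster genes had varied ranks on the cell cycle scores, where rank 1 is the highest. Well B12, with 1178 CPM over 21 members, ranked 27 of 84 on the S-phase score and 37 on the mitotic score. Well C12, with 956 CPM almost wholly from HIST1H2BH, ranked 70 and 84. Well E7, with 862 CPM led by HIST1H2BK, ranked 23 and 13. Of the next 3, well H9 with 548 CPM ranked 34 and 6, well D9 with 495 CPM ranked 5 and 59, and well D2 with 488 CPM ranked 62 and 62.

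The number of members with a read in a library had a rho of 0.62 with the number of genes detected after thinning and of 0.15 with gene reads, across the 84 libraries.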
